A study of Homo sapiens with 12 samples.

Results

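Mature microRNAs were compared between SUM159 cells that carried an shRNA against Dicer and SUM159 cells that carried a scrambled control shRNA, both given vehicle. SUM159 is a human triple-negative breast cancer cell line. The groups were chosen by the labels: 3 arrays of Dicer knockdown cells and 3 arrays of control cells without metformin, 6 of the 12 arrays in the series. All cells were stably infected with a pLKO.1 lentivirus, so the control cells carried a vector and an shRNA too, and both groups received PBS for 24 h. The other 6 arrays hold the same lines given 0.5 mM metformin for 24 h and enter only the estimate of spread and the closing comparison. The labels call the replicates biological and do not say whether they came from separate infections, so p-values measure the spread between these samples. Each value is an average over all cells of a culture, so fewer cells with a microRNA and less of it in each cell cannot be told apart.

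Dicer is the RNase III enzyme that cuts the hairpin precursor of a microRNA into a short duplex. One strand, the guide, is loaded into an Argonaute protein, and the other, the passenger strand, is usually lost and carries an asterisk in the older names used on these arrays. Most precursors are first released from the primary transcript by Drosha. Mirtrons are released by splicing instead, and miR-320a is made without Drosha as well, but both still need Dicer. The labelled knockdown therefore asks which mature microRNAs fall with less Dicer. Dicer mRNA is not measured by microRNA arrays, so its level in the 2 lines is not known from these data.

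The sequences below are those of the microRNAs that the results turn on, printed from RefSeq (GRCh38.p14) with the seed, bases 2 to 8 from the 5′ end, in capitals. The seed is the stretch that chiefly pairs with targets, and microRNAs with the same seed form a family. The first set shows members of families in which every tested member was lower in Dicer shRNA cells.
let-7a: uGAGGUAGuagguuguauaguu
let-7c: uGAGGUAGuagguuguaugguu
let-7i: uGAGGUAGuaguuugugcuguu
miR-17: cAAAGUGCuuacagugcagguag
miR-19a: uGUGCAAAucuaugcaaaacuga
miR-19b: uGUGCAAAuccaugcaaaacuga
miR-27a: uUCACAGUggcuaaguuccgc
miR-27b: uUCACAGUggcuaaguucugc
miR-103: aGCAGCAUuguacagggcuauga
miR-107: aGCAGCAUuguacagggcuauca
Within these pairs the mature sequences are close. miR-19a and miR-19b differ at 1 of 23 bases, as do miR-103 and miR-107, while miR-27a and miR-27b differ at 1 of 21. Signals of such pairs may be partly shared, and their tests are not independent.

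The next set shows the brightest guide strands that were lower, miR-21 and miR-205, the pair of miR-181 members whose groups overlapped, and both arms of the miR-125a hairpin, which lay on opposite sides.
miR-21: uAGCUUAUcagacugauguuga
miR-205: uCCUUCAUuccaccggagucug
miR-181a: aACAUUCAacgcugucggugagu
miR-181b: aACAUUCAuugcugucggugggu
miR-125a-5p: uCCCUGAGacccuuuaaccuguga
miR-125a-3p: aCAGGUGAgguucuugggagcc
The last set shows microRNAs that were higher in Dicer shRNA cells, of which miR-520b and miR-520e share a seed.
miR-1275: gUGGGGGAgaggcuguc
miR-1181: cCGUCGCCgccacccgagccg
miR-638: aGGGAUCGcgggcggguggcggccu
miR-1915: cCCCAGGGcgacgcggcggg
miR-520b: aAAGUGCUuccuuuuagaggg
miR-520e: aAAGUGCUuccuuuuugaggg

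In GRCh38.p14 the miR-21 hairpin lies at chr17:59841266-59841337 on the plus strand, within the gene VMP1. The miR-205 hairpin lies at chr1:209432133-209432242 within its host gene MIR205HG. The hairpins of miR-17, miR-18a, miR-19a, miR-20a, miR-19b and miR-92a lie together on the plus strand at chr13:91350605-91351391 in MIR17HG. That of miR-27a is at chr19:13836440-13836517 on the minus strand, in MIR23AHG with miR-23a and miR-24. The miR-107 hairpin at chr10:89592747-89592827 lies within PANK1, and the hairpins of miR-103 lie within the related genes PANK3 and PANK2. The miR-1275 hairpin is at chr6:33999972-34000051, miR-638 at chr19:10718404-10718503 within DNM2 and miR-1181 at chr19:10403458-10403538 within CDC37.

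The arrays list 851 human entries, of which 236 were detected on at least 1 vehicle array and 121 on all 6. Between 176 and 204 were detected on control shRNA arrays and between 149 and 180 on Dicer shRNA arrays, a mean of 187 ± 14.7 against 161 ± 16.6 (SD, n = 3 per group). The ranges overlapped (exact two-sided permutation p = 0.2, where 0.10 is the smallest that 3 against 3 arrays allow). Signals are given as scaled signal: the array intensity divided by a factor that sets the 75th percentile of 98 microRNAs detected on all 12 arrays equal between arrays. Differences are Dicer shRNA minus control shRNA in log2 of the scaled signal, with signals under a floor of 3.01 set to it. Differences are called where limma's p, adjusted after Benjamini and Hochberg, was under 0.05. Of 208 microRNAs tested, 124 (59.6%) were called, and for 131 (63.0%) the groups did not overlap. Lower calls in Dicer shRNA cells made up 79 (38.0%) and higher calls 45 (21.6%), and the median difference over all tested was 0.00. Of the 208, 32 were detected on all 3 arrays of a metformin group only, and 0 of these were called. Among the 121 detected on all 6 arrays, 83 (68.6%) were called, of which 43 (35.5%) were lower and 40 (33.1%) higher, and the groups did not overlap for 89 (73.6%).

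All 6 arrays lay on 1 slide, the 3 control arrays first. As read from the array identifiers, Dicer shRNA replicate 1 shared a slide row with the controls and replicates 2 and 3 lay on the other row. Line and position therefore cannot be told apart, and the row could be tested only through that array. With the row as a block, 71 were lower and 62 higher in limma. Of 7 microRNAs listed as present in mesenchymal-like breast lines, 6 were detected on all 6 arrays and called lower (miR-31 was not detected). Among all microRNAs detected on all 6 arrays 35.5% were lower. Of 8 epithelial markers, among them miR-141, the miR-200 members and miR-375, miR-205 alone was detected. None of the 7 blood cell, 3 liver and pancreas or 8 pluripotent cell markers was detected on a vehicle array, while muscle and nervous system lists gave miR-133a and miR-128 at signals under 8. miR-451, which is matured by Argonaute 2 without Dicer, was not detected and could not serve as a comparison.

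Among microRNAs detected on all 6 arrays, miR-19b and miR-27a showed the largest lower differences. miR-19b, a member of MIR17HG long studied as an oncogenic microRNA, read 279.8, 263 and 308 in control cells against 17.8, 41.5 and 39.8 in Dicer shRNA cells. Every Dicer shRNA array lay far below every control array, a difference of -3.20 ± 0.42 (SE; limma adjusted p = 8.78e-05) or 9.17-fold. miR-27a, known for its role in lipid metabolism and cell growth, read 182, 197 and 286 against 20.4, 25.1 and 29.0. The groups were again well apart, by -3.15 ± 0.17 (limma adjusted p = 1.29e-07). Its relative miR-27b read 111, 112 and 131 against 19.1, 23.8 and 28.6, a difference of -2.32 ± 0.25. miR-23a, miR-23b and miR-24, from the same 2 clusters as the miR-27 pair, differed by -1.88 ± 0.14, -2.16 ± 0.38 and -1.95 ± 0.25, so all 5 members were lower.

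The brightest guide strands fell as well. miR-21, an abundant microRNA raised in many cancers, read 954, 869 and 1059 in control cells against 140.1, 177 and 195. The groups did not overlap, and the difference was -2.50 ± 0.27 (limma adjusted p = 2.79e-05), or 5.66-fold. miR-205, which is typical of epithelial and basal cells, read 645, 620.0 and 629.5 against 124, 123 and 129. Its replicates lay close together in both groups, and the difference was -2.33 ± 0.13 (limma adjusted p = 1.29e-07). miR-146a, a target of NF-kB signalling, read 133, 127 and 153 against 15.6, 21.8 and 25.6, a difference of -2.74 ± 0.29. miR-15b, known for restraining BCL2, read 185, 197 and 229 against 26.3, 34.0 and 44.8, a difference of -2.57 ± 0.27. The groups of both were apart. Dicer shRNA replicate 1 gave the lowest signal for miR-19b, miR-27a, miR-146a, miR-15b, miR-21, miR-26a, miR-27b, let-7c, miR-23b, miR-93 and miR-199a-5p, and is the array that shared the control arrays' row. With the row as a block the differences were -2.77 for miR-21, -3.41 for miR-27a, -3.99 for miR-19b and -2.34 for miR-205, each still called.

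miR-26a, let-7c, miR-93 and miR-199a-5p complete the 12 largest lower differences among microRNAs detected on all 6 arrays whose groups did not overlap. They differed by -2.36 ± 0.23, -2.25 ± 0.24, -2.003 ± 0.25 and -1.97 ± 0.24. let-7c, a member of the tumour suppressor let-7 family, read 97.1, 104 and 132 against 15.1, 24.5 and 33.5. miR-199a-5p, a microRNA of mesenchymal cells, read 54.4, 54.7 and 61.5 against 13.99, 14.3 and 15.3, so its replicates lay close together in both groups.

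**Figure D1:**
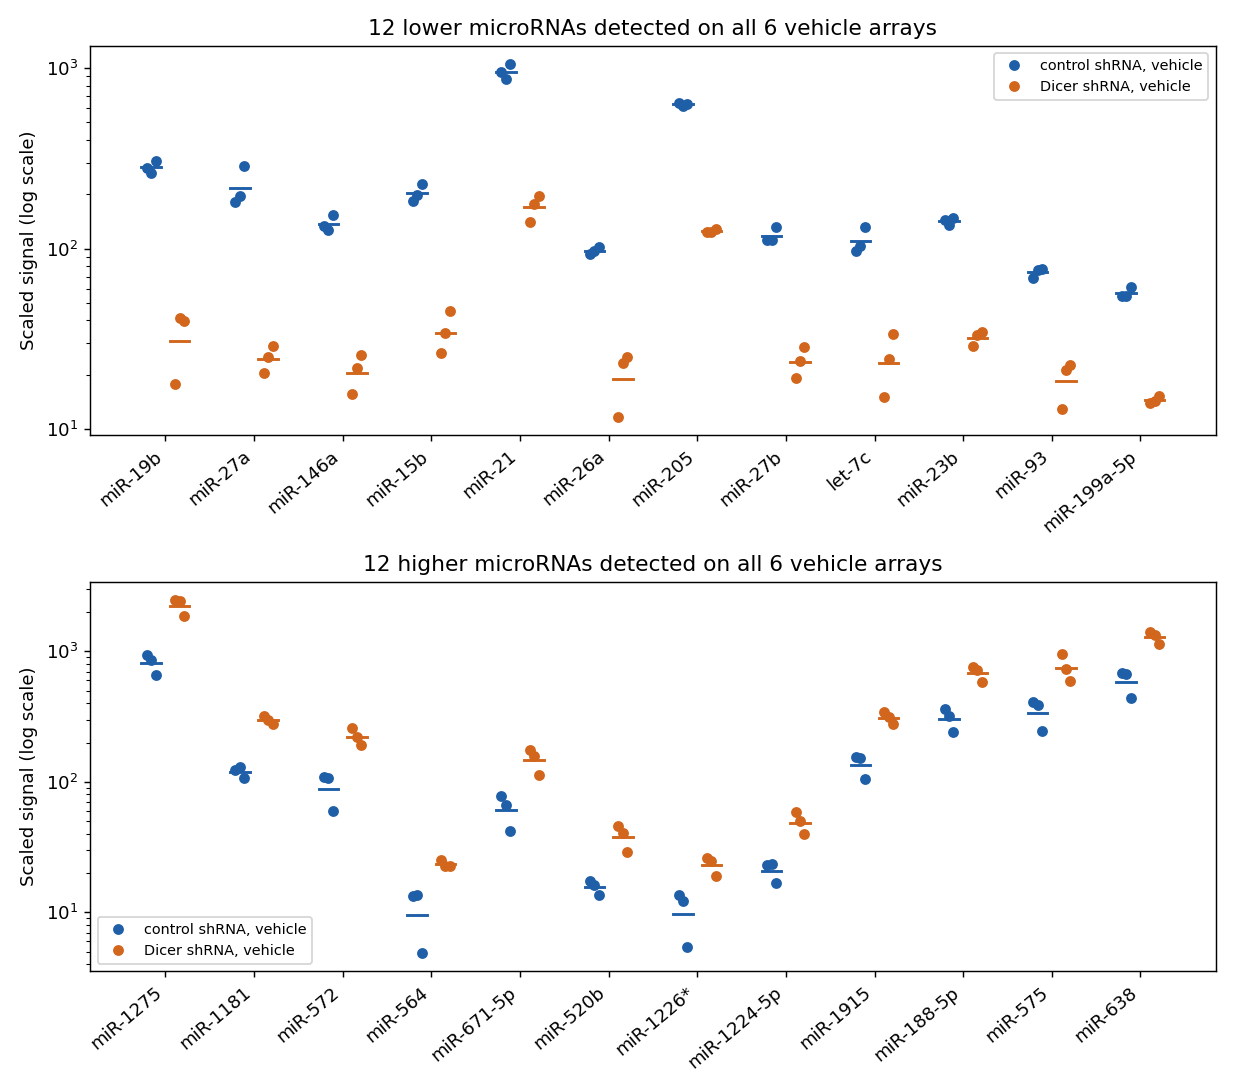
Scaled signal (log scale) on each of the 3 control shRNA (blue) and 3 Dicer shRNA (orange) vehicle arrays for the 12 largest lower (top) and 12 largest higher (bottom) differences among calls detected on all 6 arrays; bars are geometric means. These were picked among microRNAs whose groups do not overlap; the lower group reached -3.20 (miR-19b) and the higher group 1.47 (miR-1275) in log2, and with scaling to viral entries none of the 12 higher microRNAs was called.

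MicroRNAs that were dimmer in control cells often passed below detection in Dicer shRNA cells. In all, 21 were detected on all 3 control arrays and on no Dicer shRNA array. With undetected signals at the floor, these could not be higher. Of the 21, 20 were called lower, where 38.0% of all tested were. The reverse pattern held for miR-508-5p alone, at 4.72, 4.95 and 2.86 in Dicer shRNA cells, and it was not called (difference 0.46 ± 0.22, limma adjusted p = 0.106). For these 21 the size of the fall has only a lower bound, computed against the higher of the floor and each array's lowest detected signal. The bounds, written as at least below, take an undetected entry to lie no higher than that, which was not tested. The standard error is too small where a whole group lies at the floor, since such arrays have no spread of their own.

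let-7i read 29.8, 26.9 and 46.9 in control cells, so it was at least 10.3-fold lower in Dicer shRNA cells. miR-17, the first microRNA of MIR17HG, read 26.7, 25.3 and 31.5 and was at least 8.56-fold lower. miR-107 read 20.7, 21.8 and 30.3 and was at least 7.39-fold lower. miR-107 and miR-103 are known to target the Dicer mRNA itself. miR-103 read 53.3, 51.8 and 61.4 in control cells and was detected on 1 Dicer shRNA array, at 8.03, a difference of -3.73 ± 0.31 (limma adjusted p = 4.81e-06) that the floor limits. miR-130a and miR-20a, detected on no Dicer shRNA array, were at least 6.93-fold and 5.87-fold lower. miR-16, often used as a reference for other microRNAs, read 14.5, 13.2 and 18.5 and was at least 4.71-fold lower. Bounds were smaller for dimmer microRNAs: at least 2.99-fold for miR-196b, 2.57-fold for miR-224, 2.47-fold for miR-15a and 2.42-fold for miR-18a. miR-34a, a p53 target, was dim too, at 4.12, 7.75 and 10.4 in control cells, and was at least 2.14-fold lower. With quantile normalization the calls of miR-224, miR-15a, miR-18a and miR-34a were lost, and with the floor doubled those of miR-15a and miR-34a.

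**Figure D2:**
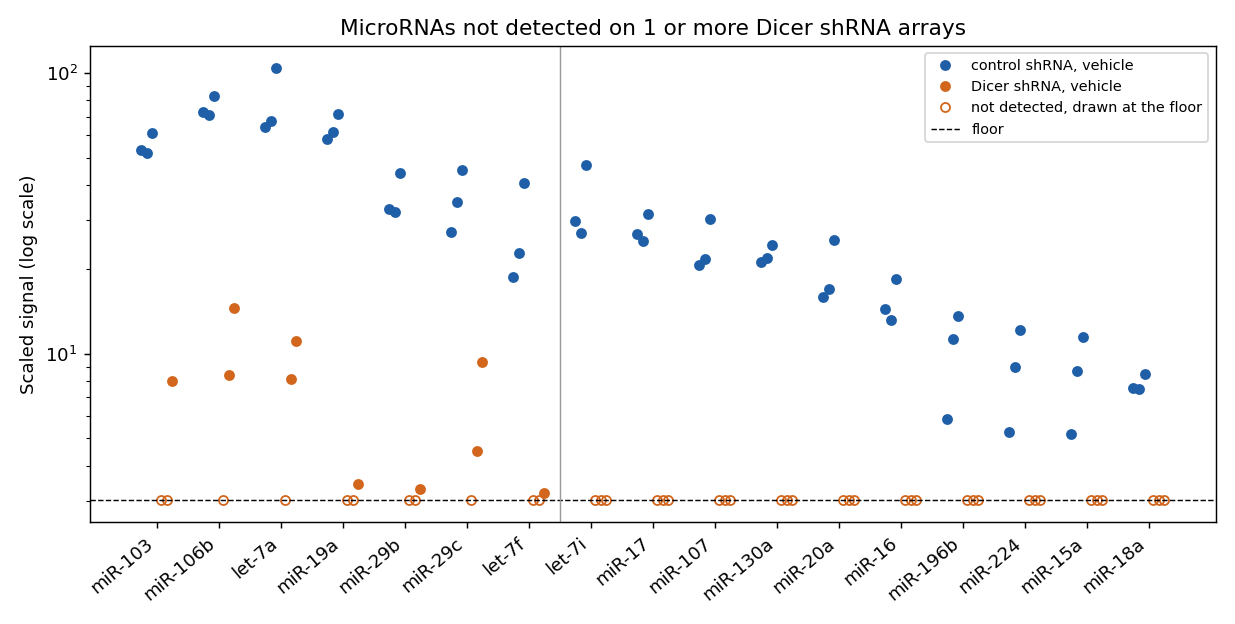
Scaled signal (log scale) on the 3 control shRNA (blue) and 3 Dicer shRNA (orange) vehicle arrays; open points were not detected and are drawn at the floor (dashed, 3.01). Left of the grey line are 7 microRNAs detected on 1 or 2 Dicer shRNA arrays, right of it 10 detected on none; miR-103 fell from 51.8 to 61.4 to a single detected value of 8.03, and let-7i from 26.9 to 46.9 to none detected.

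In most of the listed families every tested member was lower. A member enters the test when all 3 arrays of a group detect it, so those detected in control cells alone had to be lower. Of 79 lower calls across 208 microRNAs, the let-7 family gave 6 of 6 tested (of 9 on the array), with a median difference of -2.66 against 0.00 over all tested. let-7b, its brightest member, read 287, 313 and 394 against 77.2, 95.8 and 123, a difference of -1.76 ± 0.45. let-7a read 64.1, 67.3 and 105 in control cells and was detected on 2 Dicer shRNA arrays, at 8.15 and 11.1, and let-7f (-3.08 ± 0.22), detected on 1 Dicer shRNA array, and let-7g, detected on none and at least 2.12-fold lower, complete the called members. The miR-17/92 cluster and its relatives gave 10 of 10 (median -2.33). Within it miR-19a read 58.4, 61.8 and 71.6 against a single detected value of 3.43, a difference of -4.34 ± 0.10, while miR-92a read 347, 362.6 and 382 against 212, 250.5 and 231, a difference of -0.66 ± 0.14 that was -0.15 and not called with quantile normalization. miR-106b and miR-25, which share a host gene, MCM7, differed by -3.39 ± 0.43 and -1.44 ± 0.17. In MIR17HG all 7 entries were lower, miR-17* among them, with differences from -4.34 to -0.66. miR-17, miR-18a and miR-20a have only lower bounds there, and miR-19b and miR-92a also come from hairpins in MIR106AHG, so the sizes cannot be compared within 1 transcript.

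The miR-29 family, known to repress collagen genes, gave 3 of 3 (median -2.80). miR-29a read 245, 244 and 286 against 73.9, 82.5 and 85.9, a difference of -1.68 ± 0.18, while the dimmer miR-29b and miR-29c, partly below detection in Dicer shRNA cells, differed by -3.53 ± 0.12 and -2.80 ± 0.34. The miR-15/16 family gave 3 of 3 (median -2.34), and miR-103 and miR-107 both fell (median -3.36). Among these, miR-15b alone was detected on all 6 arrays. The others were complete in control cells alone, so they could hardly be higher, and the floor limits both medians. The group of miR-99, miR-100 and miR-125 gave 5 of 5 (median -1.29). Of these, miR-100 read 285, 289 and 275 against 127, 127 and 121, a difference of -1.18 ± 0.27, and miR-125b, which like miR-100 lost its call with quantile normalization, read 259, 258 and 298 against 85.04, 119 and 136, a difference of -1.29 ± 0.34. miR-99b differed by -0.39 ± 0.13 only, and its call was lost with the row as a block and without any of control replicate 1, control replicate 2 or Dicer shRNA replicate 3. The miR-30 family gave 4 of 5 (median -0.60). Its brightest members, miR-30a at 111, 104 and 102 against 69.8, 76.1 and 64.1 and miR-30d, differed by only -0.60 ± 0.10 and -0.55 ± 0.09, and with quantile normalization miR-30a was -0.076 and not called and miR-30d turned to 0.0042. miR-30e, at 14.95, 14.5 and 14.2 in control cells, differed by -2.24 ± 0.07, with a single detected Dicer shRNA value of 3.23.

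Several bright microRNAs fell less. miR-222 and miR-221, which repress the cell cycle inhibitor p27 and are typical of basal breast cancer cells, lie together in MIR222HG. miR-222 read 265, 257 and 259 against 146, 173 and 165, a difference of -0.69 ± 0.13 (limma adjusted p = 0.000991) that turned to 0.13 with quantile normalization. miR-221 differed by -1.05 ± 0.30, which was not called with the row as a block (-1.17) or with quantile normalization (-0.79). miR-22 read 503, 489 and 520.2 against 267, 294 and 306, a difference of -0.80 ± 0.18. miR-155, known from inflammation, read 37.0, 32.6 and 33.2 against 22.1, 26.6 and 21.4, a difference of -0.56 ± 0.10 that was not called with quantile normalization (-0.26). In each of these the groups did not overlap.

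Groups did not overlap for 89 of the 121 microRNAs detected on all 6 arrays (73.6%), and the rest overlapped, those below among them. miR-181a read 138, 149 and 122 against 133, 134 and 116, a difference of -0.09 ± 0.13 (limma adjusted p = 0.596), and miR-181b read 109.5, 106.8 and 87.8 against 102, 112 and 92.9, a difference of 0.02 ± 0.14. Both lay within the spread between replicates, and with scaling to viral entries they differed by -1.29 and -1.18. miR-574-3p read 32.9, 27.4 and 25.6 against 29.3, 29.7 and 23.1, a difference of -0.07 ± 0.16.

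Seeds were compared among the 180 tested microRNAs matched to RefSeq. There, 21 seeds shared by at least 2 covered 53 members, of which 39 were lower and 2 higher. All matched members were lower for 14 seeds and higher for 1, that of miR-520b and miR-520e, and no seed held matched calls in both directions. miR-320a and miR-30b were tested but not matched, so these counts leave them out. miR-320a was called higher and miR-320d lower, and miR-30b was not called. Over all tested, 38.0% were lower and 21.6% higher, and some of the 39 passed the detection filter through the control group alone.

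**Figure D3:**
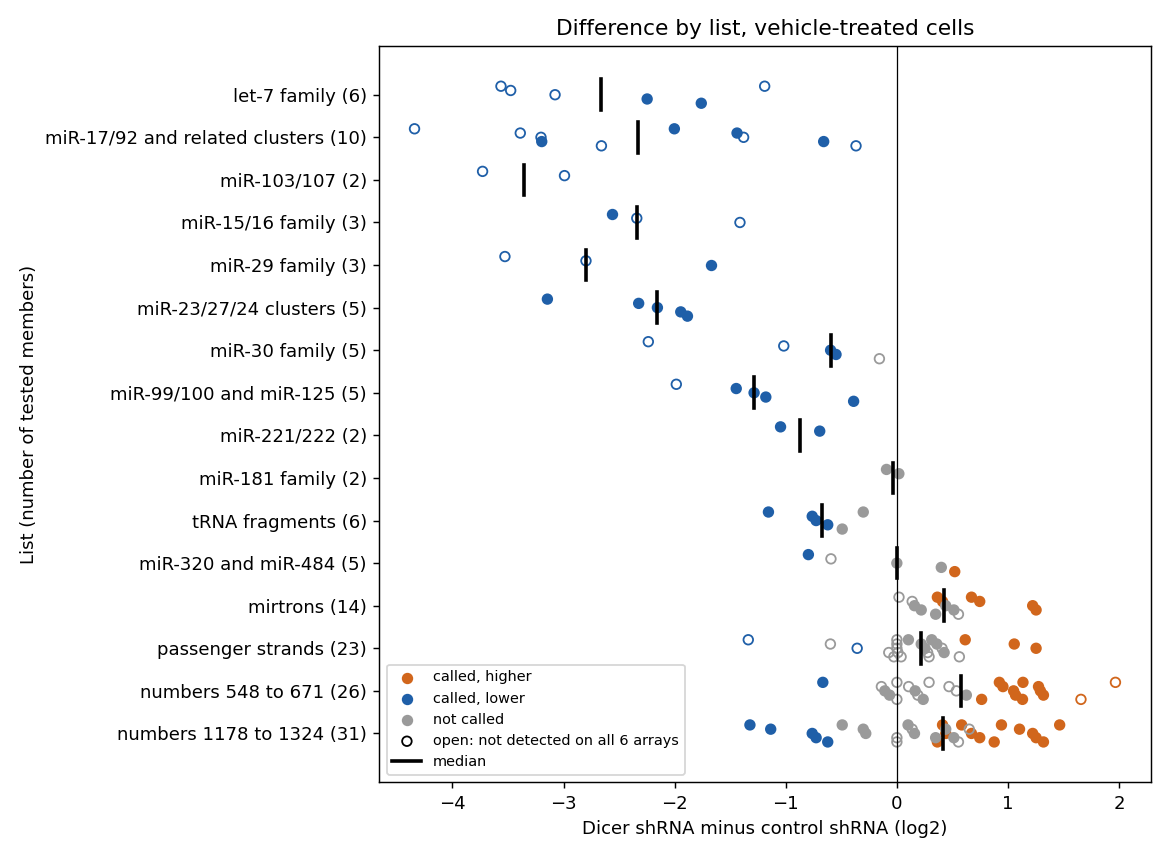
Difference (Dicer shRNA minus control shRNA, log2) of each tested microRNA in 16 lists, with the number tested in brackets; blue points are called lower, orange called higher, grey not called, open points were not detected on all 6 arrays and black bars are medians. The let-7 list (6 of 6 lower, median -2.66) and the miR-17/92 list (10 of 10, median -2.33) lie left of 0, while mirtrons (6 of 14 higher, median 0.43) lie to the right; the medians of mirtrons, passenger strands and both number ranges turned below 0 with scaling to viral entries.

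The list of mirtrons (14 tested) and the list of miR-320 entries with miR-484 (5 tested) gave 7 higher calls and 1 lower call. Membership goes by name, and how each entry is made was not measured. Listed mirtrons gave 6 higher and 0 lower of 14 tested, where 21.6% of all tested were higher and 38.0% lower. Their median of 0.43 turned to -0.49 with scaling to viral entries. The 11 detected on all 6 arrays gave 6 higher and 0 lower, where 33.1% and 35.5% of all so detected were higher and lower. Among them miR-1225-5p, the brightest, read 587, 604 and 554 against 838, 738 and 655, a difference of 0.35 ± 0.14 (limma adjusted p = 0.0556). miR-1228 read 32.6, 32.3 and 28.8 against 58.3, 49.2 and 42.7, a difference of 0.67 ± 0.16. Of the 4 miR-320 entries, miR-320a was higher at 98.1, 93.7 and 69.3 against 134, 131 and 107.4 (0.52 ± 0.14), and miR-320d was lower at 123, 123 and 134 against 70.9, 74.5 and 74.1 (-0.80 ± 0.13). miR-320b read 160.3, 157 and 133 against 165, 159 and 128, a difference of 0.00 ± 0.13, and miR-320c differed by 0.40 ± 0.17 without a call. miR-484, another microRNA made without Drosha, was dim and not called (-0.59 ± 0.50).

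Entries that match fragments of other RNAs moved in both directions. Of 6 tRNA fragments, all detected on all 6 arrays, 4 were lower and 0 higher (median -0.67), where 35.5% of the microRNAs so detected were lower. miR-720 read 1612, 1665 and 1714 against 761, 823 and 664, a difference of -1.16 ± 0.12 (limma adjusted p = 2.57e-05), and miR-1274a, miR-1274b and miR-1260 differed by -0.73 ± 0.16, -0.62 ± 0.17 and -0.76 ± 0.18. These 3 lost their call with the 75th percentile taken over the 121 microRNAs detected on all 6 vehicle arrays and with quantile normalization, and miR-1274b (-0.58) and miR-1260 (-0.61) also with the slide row as a block. miR-1246, which matches U2 snRNA, read 105, 113 and 118 against 43.1, 41.9 and 49.7, a difference of -1.32 ± 0.16. miR-1826 overlapped between groups at 122, 82.1 and 109 against 77.5, 110.4 and 96.7. miR-923, a fragment of 28S rRNA, was the brightest entry, at 95304, 88739.6 and 89179 against 132272, 135540.0 and 125948, a difference of 0.53 ± 0.09. It took 78.5% ± 0.685 of the human signal on control arrays and 83.6% ± 0.807 on Dicer shRNA arrays (SD, n = 3 per group; exact permutation p = 0.1). Without it the scaled totals overlapped, at 24957 ± 1136 and 25816 ± 2142.

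MicroRNAs that were higher in Dicer shRNA cells included many with late miRBase numbers and GC-rich sequences. miR-1275 read 932, 865 and 661 against 2483, 2438 and 1852, a difference of 1.47 ± 0.16 (limma adjusted p = 3.29e-05) or 2.76-fold. miR-1181 read 122, 129 and 106 against 317, 296 and 277, a difference of 1.32 ± 0.13. miR-638 read 683, 676 and 438 against 1404, 1331 and 1136, a difference of 1.13 ± 0.18. The groups of all 3 were apart, with control replicate 3 the lowest array. The same control array was the lowest for the other 9 of the 12 largest higher differences. Of these, miR-671-5p (1.27 ± 0.23), miR-188-5p (1.17 ± 0.16) and miR-1915 (1.21 ± 0.17) lie within genes, CHPF2, CLCN5 and MIR1915HG in that order. Others of the 9 lie within genes too, such as miR-564 in KIF15. miR-572 (1.32 ± 0.23), miR-520b (1.27 ± 0.17), miR-564 (1.29 ± 0.35) and miR-575 (1.13 ± 0.23) follow, with miR-1226* (1.25 ± 0.29) and miR-1224-5p (1.22 ± 0.18) from mirtrons. All 12 kept their call without that array. miR-520b, from the primate microRNA cluster on chromosome 19, read 17.3, 16.3 and 13.6 against 46.1, 40.5 and 28.7, and its relative miR-520e read 3.60 and 7.23 on the 2 control arrays that detected it against 23.5, 16.6 and 12.7. The 2 sequences differ at 1 of 21 bases, and 3 of the 46 entries of that cluster were detected on a vehicle array. Of microRNAs named from miR-548 to miR-671, 12 of 26 were higher and 1 lower (median 0.58). Of those named from miR-1178 to miR-1324, 13 of 31 were higher and 5 lower (median 0.41). These shares stand against 21.6% higher and 38.0% lower over all tested. Among members detected on all 6 arrays, 10 of 16 and 13 of 26 were higher, against 33.1% of all so detected. Listed mirtrons from miR-1224 to miR-1238 belong to the second range too, so their calls are counted in both lists.

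The arrays also carry entries for microRNAs of herpesviruses and HIV, and these moved with the higher group. All 10 viral entries detected on all 6 arrays were higher in Dicer shRNA cells, with a median of 0.87 and a range from 0.17 to 1.67, and 8 had groups that did not overlap. Their summed scaled signal ran from 597 to 768 on control arrays and from 1276 to 1587 on Dicer shRNA arrays. The 4 control entries with names starting in hur moved the other way (median -0.81, 3 with groups apart). Scaled to the median of viral entries, 4 microRNAs were higher and 128 lower, the median over all tested shifted to -0.998, and miR-1275 differed by 0.27 and miR-638 by -0.068 with neither called. The lower calls named above all held under that scaling. It shifted the differences downward, however, so it could hardly weaken a lower call and is no test of them. With quantile normalization, 57 of the 78 named calls of either direction held, 19 were lost and 2 turned. The part of the rise in viral entries in the higher calls was not tested beyond this scaling.

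The direction also moved with brightness. Split by control signal, the dimmest 40 of the 121 gave 14 higher and 1 lower (median 0.34), the middle 40 gave 14 and 18 (-0.05), and the brightest 41 gave 12 and 24 (-0.69). A dim microRNA that falls far leaves this set, which asks for detection on all 6 arrays.

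**Figure D4:**
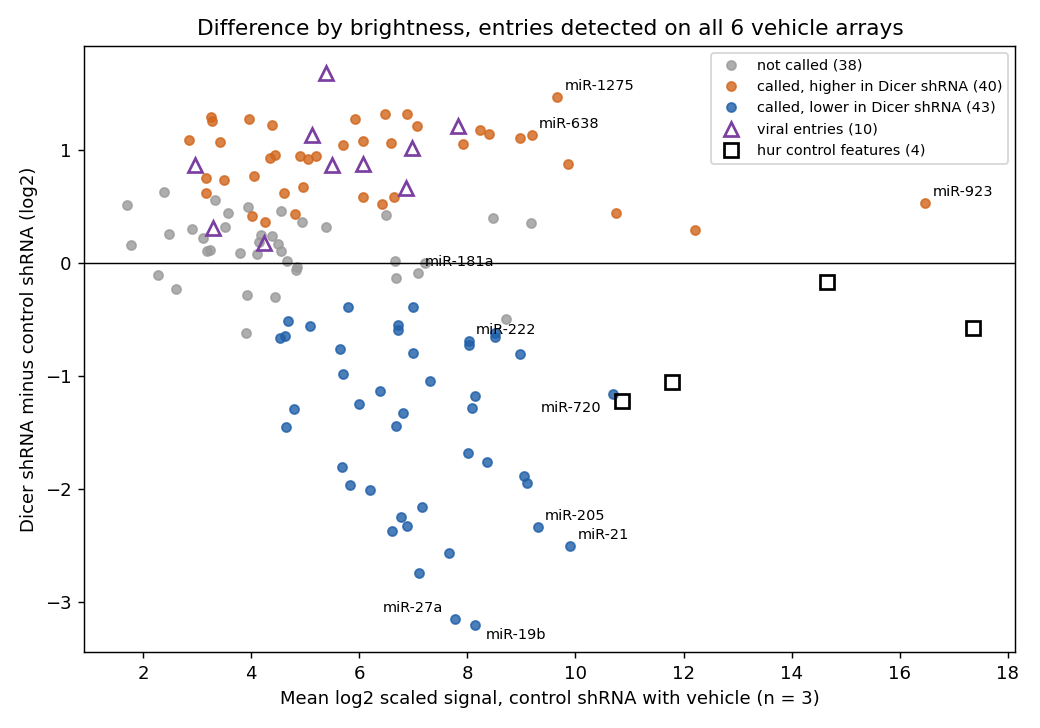
Difference (Dicer shRNA minus control shRNA, log2) against mean log2 scaled signal in control cells for the 121 microRNAs detected on all 6 arrays: 43 called lower (blue), 40 called higher (orange) and 38 not called (grey). The 10 viral entries (triangles) lie between 0.17 and 1.67 among the higher calls, and the 4 hur control entries (squares) lie below 0; with scaling to viral entries 4 of all 208 tested were called higher.

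Base composition of the mature sequence differed between the called sets. Of the 121 microRNAs, 99 matched a RefSeq mature sequence. G and C made up a median of 67.5% of bases in the 32 higher, 47.8% in the 38 lower and 59.1% in the 29 not called. With G and C at 60% or more, 22 of 37 were higher and 4 lower, while at 40 to 50% 3 of 22 were higher and 16 lower, and below 40% 0 of 7 were higher and 4 lower. Across these 99 microRNAs, Pearson's r between G and C content and the difference was 0.54 and Spearman's rho was 0.61, a description over microRNAs that share 6 arrays and are not independent. The printed sequences show the contrast: miR-19b and miR-21 are rich in a and u, and miR-1181 and miR-1915 in g and c. Exceptions include miR-520b, higher at 42.9%, miR-324-3p, lower at 73.9%, and miR-210 and miR-99b, both lower at 63.6% (miR-324-3p and miR-210 were picked after their values were seen). Control brightness differed along with it, with a median log2 signal of 6.93 in the lower and 4.94 in the higher set, and their separate parts were not tested.

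**Figure D5:**
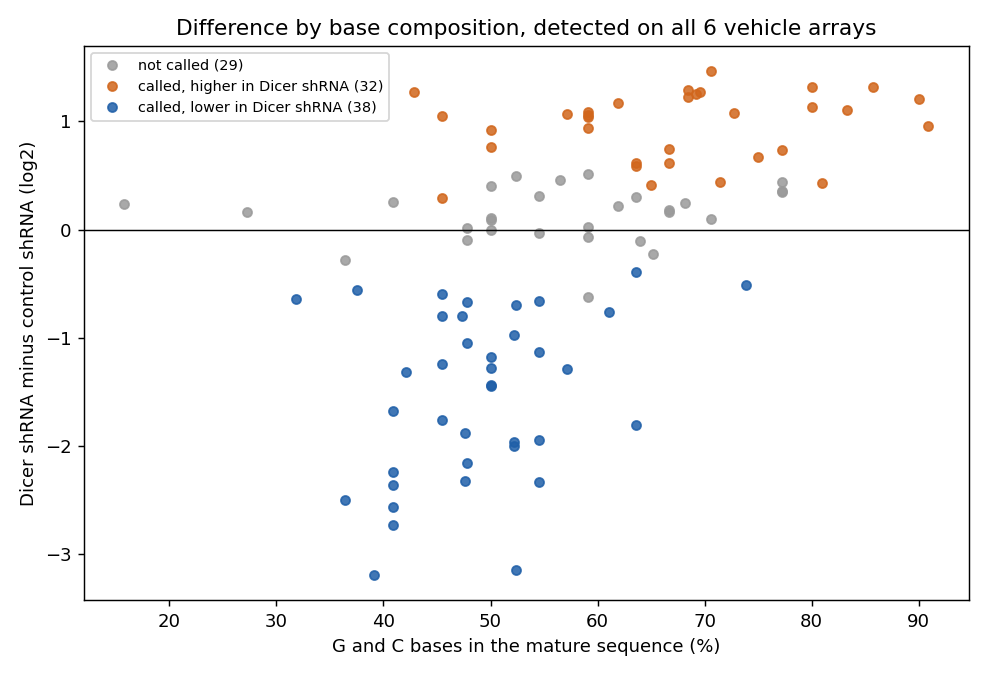
Difference (Dicer shRNA minus control shRNA, log2) against the share of G and C bases in the RefSeq mature sequence for 99 microRNAs detected on all 6 arrays; blue points are called lower (38), orange higher (32) and grey not called (29). Higher calls have a median of 67.5% and lower calls of 47.8%; the height of all points shifts down with scaling to viral entries.

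Arms of a hairpin need the same Dicer cut, so they were set side by side. Both arms were detected on all 6 arrays for 6 hairpins matched in RefSeq. For miR-125a they lay on opposite sides: miR-125a-5p read 22.6, 24.9 and 27.7 against 8.03, 8.74 and 11.04 (-1.45 ± 0.12), while miR-125a-3p read 36.6, 32.8 and 22.8 against 67.9, 62.3 and 45.6 (0.94 ± 0.19). The 2 arms differ in base composition, at 50% and 59.1% G and C. Their groups did not overlap in either arm, but with scaling to viral entries miR-125a-3p turned to -0.26. For let-7b the guide fell (-1.76 ± 0.45) and let-7b* did not pass (0.10 ± 0.47), its Dicer shRNA replicate 1 standing apart at 23.6. With the slide row as a block, which rests on that array, let-7b* was called higher (1.37, limma adjusted p = 0.0116). For the miR-574 hairpin, miR-574-5p was lower (-0.67 ± 0.24), a call lost without any one of the 3 control arrays, and miR-574-3p was not called. For the miR-1224 mirtron, miR-1224-5p was higher (1.22 ± 0.18) and miR-1224-3p was not called (0.16 ± 0.26). Neither arm was called for miR-1225 or miR-423, but with the slide row as a block miR-1225-5p (0.53) and miR-1225-3p (0.88) were both called higher. A further passenger strand, miR-21*, read 102, 100.2 and 71.4 against 139, 133 and 95.5, a difference of 0.43 ± 0.18 (limma adjusted p = 0.0686), where miR-21 itself fell 5.66-fold. Over the 23 passenger strands tested, 3 were higher, miR-135a* among them (1.06 ± 0.15), and 2 lower, against 21.6% and 38.0% of all tested. The median was 0.22, which turned below 0 with scaling to viral entries. Of the 23, 9 were detected on all 6 arrays, with 3 higher and 0 lower. Among all microRNAs so detected 33.1% were higher and 35.5% lower.

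Cells given metformin offer a second pair of groups, on another slide, and metformin and slide cannot be told apart. Tested as the difference between the 2 knockdown differences in limma, 159 of 208 (76.4%) were called. Of the 79 lower calls under vehicle 73 differed from their value under metformin, and of the 45 higher calls 44. The vehicle difference enters this test, so microRNAs picked by a call under vehicle are favoured to pass it. Of those detected on all 12 arrays, 18 of 23 lower calls and 39 of 40 higher calls passed, where 71.4% of all 98 so detected did. Among microRNAs detected on all 12 arrays, the 23 lower calls had a median of -0.73 under vehicle and 0.83 under metformin, and the 40 higher calls 0.95 and -0.40. miR-205 was lower in Dicer shRNA cells in both settings, by -2.33 and -0.43, and miR-21 was lower under vehicle and higher under metformin, by -2.50 and 2.12. Some lower microRNAs, such as miR-27a, were at the floor on the metformin arrays and have no direction there.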

How the data were processed

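The arrays are Agilent human microRNA arrays read in 1 colour, with total RNA labelled by Cy3, per the labels. Their labelling text names a kit for mRNA, not microRNA. Feature extraction used Agilent Feature Extraction 9.1 (as the submitters' processing notes list it), and the deposited intensity is a total signal per entry on a linear scale with a detection flag, 0.1 standing for not detected. The deposited series matrix holds log2 values with 0 for not detected, of unknown normalization and centring, and was used as an alternative. How background was removed is not given in the sources used here.

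Arrays were scaled, floored (3.01, log2 1.59, the 5th percentile of detected signals on the median array) and log2-transformed. The 208 microRNAs that every array of some group detected, of 4 groups of 3, were fitted with 4 group means on all 12 arrays in limma 3.58.1 (R 4.3.3; 8 residual degrees of freedom, prior 1.85), with Benjamini-Hochberg adjustment over all of them. The number of arrays limits the precision. Titles gave the groups, with which the source names under metformin disagree. Tables were made with pandas 2.3.3 and figures with matplotlib 3.10.9. The same fit was also tested on simulated data. Over 208 microRNAs, 60 were changed in each of 20 simulations of the vehicle comparison. In these, 87.2% of changes of 1 log2 and 99.8% of changes of 2 log2 were recovered, and 3.86% of calls were false. The changes were placed only in microRNAs brighter than the median, equally up and down. Noise was normal, with no floor, detection step or rescaling. These shares therefore do not cover changes in dim or floored entries or the choice of scaling.

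No replicate pair held an identical value among microRNAs detected on both (r 0.956 to 0.990). Entries were matched to RefSeq mature names through a table of old and current names, 434 of 851 and 180 of the 208 tested. Hairpins within 10 kb on a strand were taken as a cluster.

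The members and lists were chosen with earlier results of these data known. After the files were seen, the numbers counted for the chromosome 19 cluster were corrected, because miR-513 and miR-514 lie elsewhere. The text names the 12 largest differences per direction among calls detected on all 6 arrays with groups apart, up to 10 per direction by signal among those detected in 1 group alone, a set always named (miR-21, let-7a, miR-103, miR-107, miR-16, miR-222, miR-34a, miR-451, miR-320a, miR-155), up to 6 members of a list by brightness, and list members called against most of their list. The arms of hairpins with both arms detected on all 6 arrays were named after their values were seen. Alternatives covered scaling, floor, filter, samples in the fit, test, deposited log2 values, blocks and leaving out each array.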

Additional observations from a re-analysis of the deposited data

Results flagged for a closer look

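The knockdown difference under metformin minus that under vehicle passed the threshold in limma for 33 of the 37 named calls detected on all 12 arrays. Of all 98 microRNAs so detected, 70 (71.4%) passed. Named calls were picked in part by their vehicle difference, which enters this test, so they are favoured to pass. The values below are those changes, in log2. Metformin and slide cannot be told apart, and the cause of these changes was not tested. Among microRNAs lower in Dicer shRNA cells under vehicle, miR-21 changed by 4.62, miR-24 by 4.01, miR-100 by 3.73, miR-23a by 3.40, miR-221 by 3.38 and miR-222 by 2.74. For these 6 the difference under metformin was above 0. Smaller changes were found for miR-205 (1.90), miR-320d (1.74), miR-30a (1.58), miR-92a (1.48), miR-1274a (1.33), miR-99b (1.31), miR-22 (1.20), miR-30d (0.88) and miR-720 (0.49). miR-155 was lower in both settings and changed by -0.42.

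Among microRNAs higher under vehicle, miR-1275 changed by -2.71, miR-1181 by -1.98, miR-135a* by -1.84, miR-1915 by -1.77, miR-671-5p by -1.73, miR-575 by -1.72 and miR-1224-5p by -1.68. The change was -1.57 for miR-1226*, -1.52 for miR-572, -1.52 for miR-125a-3p, -1.48 for miR-564 and -1.44 for miR-638. It was -1.24 for miR-188-5p, -1.22 for miR-520b, -1.18 for miR-1228, -0.86 for miR-923 and -0.58 for miR-320a. Of these, miR-520b alone had a difference above 0 under metformin, 0.05.

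Outside the human entries, the 10 viral entries detected on all 6 vehicle arrays were higher in Dicer shRNA cells by a median of 0.87.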

How the results depend on the processing

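Of 78 named calls, 41 kept their direction and their side of the threshold in each of the 24 alternatives that tested them. Not all were tested in each. The alternative limited to microRNAs detected on all 6 vehicle arrays held 54 of the 78, and that limited to all 12 arrays held 37. The scaling mattered most. With the median of viral entries, 4 microRNAs were higher and 128 lower, and these named values turned: miR-188-5p to -0.025, miR-575 to -0.064, miR-638 to -0.068, miR-135a* to -0.14, miR-125a-3p to -0.26, miR-1228 to -0.53, miR-923 to -0.67 and miR-320a to -0.68. Uncalled values that turned were miR-423-5p (-0.74), miR-1225-3p (-0.76), miR-21* (-0.77), miR-320c (-0.80), miR-1225-5p (-0.85), miR-1224-3p (-0.88) and miR-181b (-1.18). With quantile normalization 61 were higher and 48 lower, and miR-222 (0.13), miR-30d (0.0042), miR-423-3p (0.37) and miR-320b (0.55) turned. A further 19 named calls were lost there, those of miR-15a, miR-18a, miR-30a, miR-34a, miR-92a, miR-99b, miR-100, miR-125b, miR-128, miR-155, miR-221, miR-224, miR-324-3p, let-7g, miR-574-5p, miR-923, miR-1260, miR-1274a and miR-1274b. miR-320b turned to 0.32 with the 75th percentile over microRNAs detected on all 6 vehicle arrays (60 higher, 66 lower), and miR-181b to -0.39 with the median over those detected on all 12 (32 higher, 91 lower). No scaling gave 39 higher and 86 lower. The cause was not tested.

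Fewer microRNAs tested gave fewer calls: 44 were lower among those detected on all 6 vehicle arrays, and 24 lower, 40 higher and 72 interaction calls among those detected on all 12. Leaving out each vehicle array gave 39 to 54 higher, 76 to 79 lower, 151 to 164 interaction calls and a difference in detected microRNAs of -35.8 to -18.0. The replicate numbers do not pair the samples (deviations of same-numbered arrays correlated at -0.10, 0.04 and 0.12, and not every array best with its own number). With a replicate block 52 were higher and 77 lower. Signals near the floor limit how large a fall can be shown.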
